A study of Rattus norvegicus with 12 samples.

Results

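Connexins and pannexins are the channel proteins of vertebrate gap junctions and of ATP-releasing membrane pores. All probe sets of the connexin genes Gja1, Gjb1, Gjb2 and Gjc1 and of the pannexin gene Panx1 were taken by gene symbol from the annotation of the array, with older symbols accepted (Gjc1 was formerly Gja7). The 5 genes, of 14217 genes that the array could name, had 9 of its 31042 probe sets that are not controls. Expression was measured in WB311 and WB-F344 rat liver epithelial cells, each exposed for 24 hr to 50 nM rapamycin, an inhibitor of the mTOR kinase, or to the solvent DMSO (vehicle). Each of the 4 groups, WB311 with rapamycin, WB311 with vehicle, WB-F344 with rapamycin and WB-F344 with vehicle, held RNA from 3 plates, hybridized to 1 Affymetrix Rat Genome 230 2.0 array each. WB-F344 is a diploid, non-tumorigenic line from an adult Fischer rat that the labels give as sensitive to rapamycin, with a doubling time of 42 hr. WB311 arose from it without a carcinogen, is tumorigenic and resistant, and doubles every 15.5 hr. With 1 line of each kind, a difference between them concerns these 2 lines, and the plates measure the spread between dishes, which may be technical.

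Connexins assemble as hexamers in the plasma membrane, and hexamers of neighboring cells dock to form channels that pass ions and small metabolites such as cyclic AMP and inositol trisphosphate. Connexin 43 (Gja1) is the connexin for which WB-F344 cells are used as a gap junction model, whereas hepatocytes are joined by connexin 32 (Gjb1) and connexin 26 (Gjb2). Connexin 45 (Gjc1) is best known from smooth muscle and the conduction system of the heart. Pannexin 1 (Panx1) does not form gap junctions but opens to the outside of the cell and releases ATP.

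The promoters of Gja1, the connexin of the gap junction model, and of Gjb2, which was lower in WB311 and fell with rapamycin in WB-F344, are printed because the results below turn on these genes. Each runs from 250 bases before to 50 bases after the start of the gene in the RefSeq annotation of GRCr8, in which 4 of the 5 members matched a promoter entry. Gja1 lies on the plus strand at chr20:36302314-36302613 and Gjb2 on the minus strand at chr15:35381904-35382203. Capitals mark a match to the AP-1 site TGANTCA, the GC box GGGCGG or the TATA box TATAAA on either strand.
Gja1: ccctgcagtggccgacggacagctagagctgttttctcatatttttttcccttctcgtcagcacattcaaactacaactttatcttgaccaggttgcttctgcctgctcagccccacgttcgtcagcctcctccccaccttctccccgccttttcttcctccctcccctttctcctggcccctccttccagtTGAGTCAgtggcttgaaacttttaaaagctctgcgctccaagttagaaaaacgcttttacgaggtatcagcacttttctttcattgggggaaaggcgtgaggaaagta
Gjb2: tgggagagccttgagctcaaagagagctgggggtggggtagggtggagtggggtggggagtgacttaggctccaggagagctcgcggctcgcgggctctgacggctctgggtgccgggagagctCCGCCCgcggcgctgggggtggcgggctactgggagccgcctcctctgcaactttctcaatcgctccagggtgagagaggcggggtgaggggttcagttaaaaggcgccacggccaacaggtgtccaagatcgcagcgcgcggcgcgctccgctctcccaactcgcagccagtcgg
The Gja1 window held the AP-1 site TGAGTCA at position -58 from the start and no GC box, with a GC content of 50.3%. The Gjb2 window held a GC box, read here as CCGCCC at position -126, and no AP-1 site, with a GC content of 68%. Neither window held a TATA box, and nor did those of Gjb1 and Panx1. Panx1 held a GC box at -121, and the window of Gjb1 held only the E-box CANNTG, which all 4 windows had. Of all 33469 promoters of this length, 33.1% held the GC box, 7.33% the AP-1 site, 72.1% the E-box and 14.2% the TATA box. These matches describe the letters of the windows and are not evidence of binding.

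The deposited values are linear intensities, and comparisons were limited to probe sets averaging 100 or more in a compared group, the minimum that the study's methods set. A call required a limma adjusted p below 0.05 together with a change of 1.2-fold or more. Of the 9 probe sets, 4 reached that minimum, the 2 brighter Gja1 probe sets and those of Gjb2 and Gjc1. Levels under 100 are given as measured, and levels of different probe sets are not set against each other, since probes differ in how well they bind. Gjb1, Panx1 and the remaining Gja1 probe set stayed below it on all 12 arrays. Plates are numbered here by the replicate number of the labels, so plate 2 is a different dish in each group. The labels state no pairing of plates with the same number. The WB-F344 arrays of plate 2 stood apart from the other arrays of their groups. Their Gapdh control probe sets for the 3' end exceeded those for the 5' end by 0.17 with rapamycin and 0.34 with vehicle on the log2 scale, whereas on the other 10 arrays this difference was between -0.12 and -0.042. The called differences of the members, and the counts of the gene lists, are given with and without them below. The hepatocyte markers were at or near background, with only Ttr of 9 genes reaching 100 (group means of 96.9 to 103) and Alb between 30.9 and 36.7 on all arrays. Of 6 biliary and progenitor markers 4 reached 100, of 10 mesenchymal markers 7, of 4 endothelial markers only Tek, and of 5 leukocyte markers 1. In cultures measured as a whole, fewer cells with a transcript and less transcript per cell cannot be told apart.

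**Figure D1:**
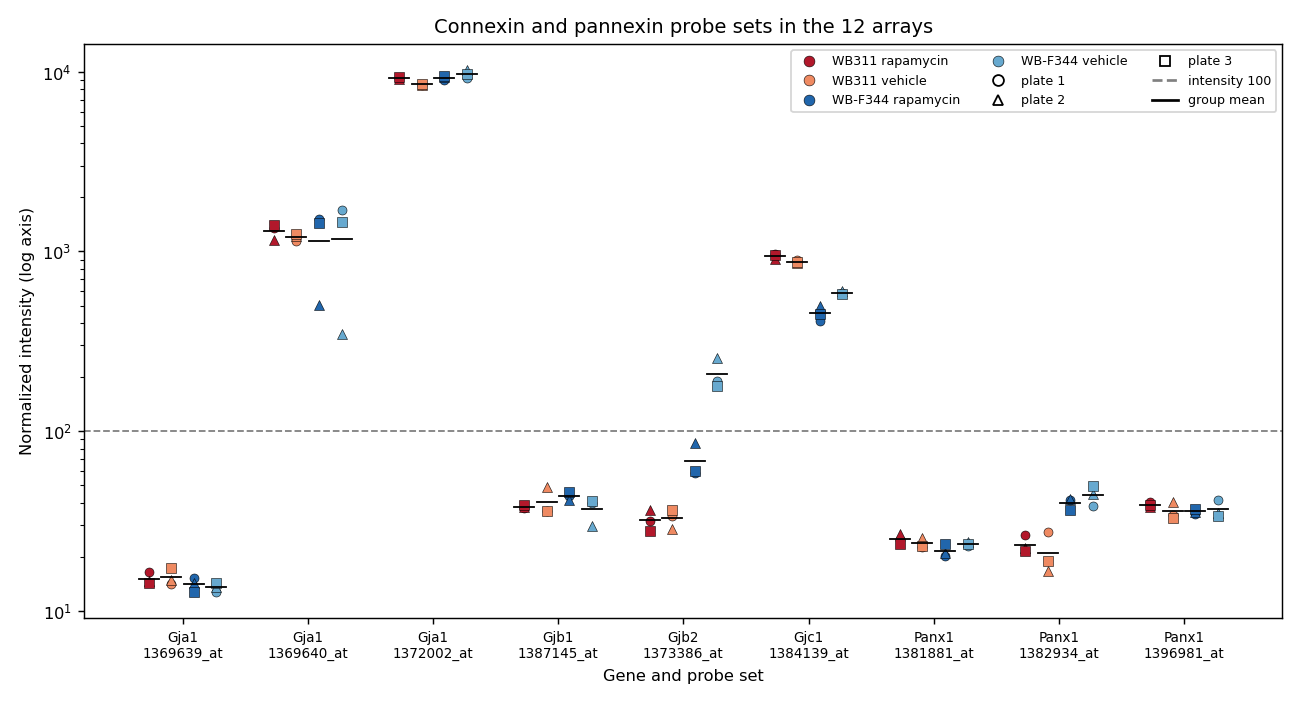
Normalized intensity (log axis) of the 9 connexin and pannexin probe sets on each of the 12 arrays. Colors give line and treatment, symbols the plate, short bars the group means and the dashed line the intensity of 100. Gja1 and Gjc1 lay above the line on all arrays in 3 probe sets, Gjb2 crossed it only in WB-F344 with vehicle, and the other 5 probe sets stayed below 50.

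Gja1 was bright in both lines on its brightest probe set, and no comparison of that probe set was called. This probe set, 1372002_at, read 9255, 9073 and 9331 in WB311 with rapamycin and 8408, 8481 and 8593 in WB311 with vehicle. It read 9013, 9370 and 9433 in WB-F344 with rapamycin and 9200, 10207 and 9718 in WB-F344 with vehicle. With vehicle, the 3 WB311 arrays lay below the 3 WB-F344 arrays, at means of 8494 ± 92.9 and 9708 ± 504 (SD, n = 3 each). The log2 difference was -0.19 (SE 0.062, limma adjusted p = 0.0181), and at 1.14-fold it was under the fold change required for a call. Leaving out single arrays moved the adjusted p between 0.0131 and 0.0613, and without both WB-F344 arrays of plate 2 the log2 difference was -0.15 (limma adjusted p = 0.0504). With rapamycin the lines overlapped, at means of 9220 ± 133 in WB311 and 9272 ± 226 in WB-F344, and the 95% interval of their log2 difference ran from -0.14 to 0.13.

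Rapamycin left this Gja1 probe set within a narrow interval in each line. In WB311 the rapamycin arrays lay above the vehicle arrays without overlap, yet the log2 difference was 0.12 (95% interval -0.018 to 0.25, limma adjusted p = 0.375). In WB-F344 the arrays overlapped, with a log2 difference of -0.065 (95% interval -0.20 to 0.071, limma adjusted p = 0.484). The effect in WB311 minus that in WB-F344 was 0.18 (95% interval -0.0086 to 0.38, limma adjusted p = 0.233). Under the alternative settings the log2 difference in WB311 ran from 0.11 to 0.15, and its lowest adjusted p was under 0.05. The difference of the effects ran from 0.15 to 0.22, with a lowest limma adjusted p of 0.0296. All of these stayed under the fold change required for a call.

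The other bright Gja1 probe set, 1369640_at, did not follow the first on the WB-F344 arrays of plate 2. It read 1349, 1163 and 1405 in WB311 with rapamycin and 1136, 1212 and 1253 in WB311 with vehicle. It read 1513, 500.5 and 1432 in WB-F344 with rapamycin and 1709, 348.7 and 1449 in WB-F344 with vehicle, so that plate 2 was the lowest array in both treatments. The coefficient of variation was 9.70% with rapamycin and 4.94% with vehicle in WB311, against 49.0% and 61.8% in WB-F344. On the log2 scale 1369640_at lay below 1372002_at by a nearly constant amount on the other 10 arrays, where the difference was -2.96 to -2.43. On the WB-F344 arrays of plate 2 it was -4.23 with rapamycin and -4.87 with vehicle. The same 2 arrays had the highest 3' minus 5' differences of the beta-actin controls, 0.62 with rapamycin and 1.04 with vehicle, against 0.21 to 0.49 on the others. The part of RNA quality in the values of this probe set was not tested.

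No comparison of 1369640_at was called in the fit over all arrays, with a standard error of 0.52 on the log2 scale for each pair of groups. That error is shared by the 4 groups, so it carries the spread of WB-F344 into WB311. For rapamycin in WB311 the log2 difference was 0.12, with a 95% interval of -1.02 to 1.26. With both WB-F344 arrays of plate 2 left out, that interval was -0.076 to 0.31. WB311 exceeded WB-F344 by 0.33 with vehicle and by 0.34 with rapamycin in the log2 means, with 95% intervals of -0.81 to 1.47 and -0.80 to 1.48. Without both WB-F344 arrays of plate 2 the sign turned, at -0.39 with vehicle (limma adjusted p = 0.0041, a call) and -0.18 with rapamycin (limma adjusted p = 0.128). The 3rd Gja1 probe set, 1369639_at, read 12.7 to 17.2 on all arrays.

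**Figure D2:**
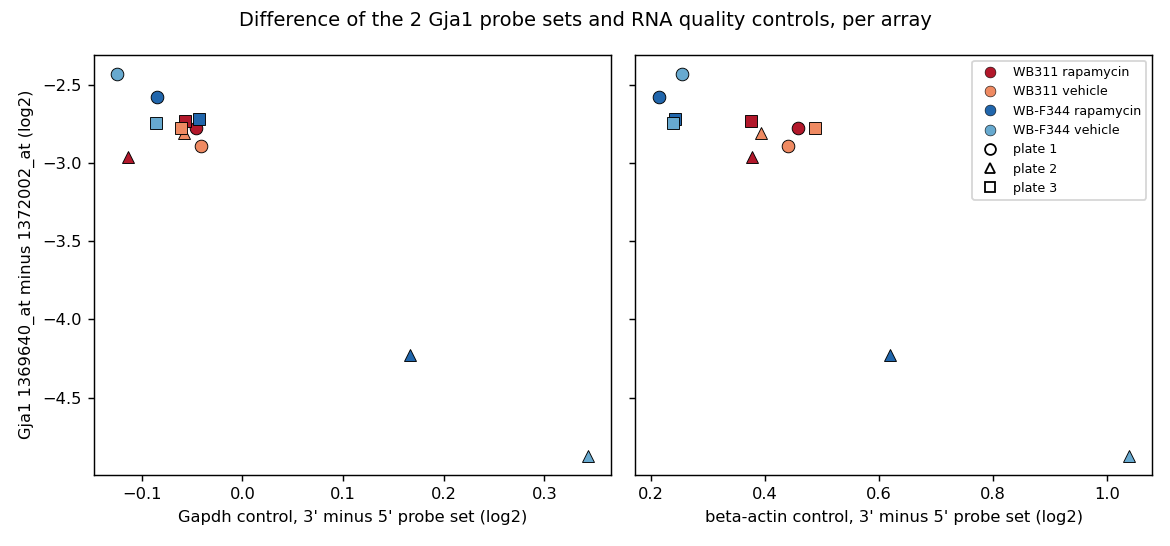
Difference of the 2 bright Gja1 probe sets (1369640_at minus 1372002_at, log2, vertical axis of both panels) against the 3' minus 5' difference of the Gapdh controls (left panel, log2) and of the beta-actin controls (right panel, log2), 1 point per array. The 2 WB-F344 arrays of plate 2 lie alone at the lower right, at -4.23 and -4.87, and the other 10 arrays lie between -2.96 and -2.43.

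Gjb2 was lower in WB311 than in WB-F344 with vehicle, and it exceeded 100 only in WB-F344 with vehicle. Its probe set, 1373386_at, read 31.6, 36.5 and 27.8 in WB311 with rapamycin and 33.7, 28.5 and 36.4 in WB311 with vehicle. It read 58.3, 85.5 and 60.2 in WB-F344 with rapamycin and 189.5, 255.5 and 178.5 in WB-F344 with vehicle. The WB-F344 vehicle arrays were the only ones above 100, the WB-F344 rapamycin arrays formed a middle level, and the WB311 arrays of both treatments overlapped at the lowest level. The coefficient of variation was 13.6% in WB311 with rapamycin, 12.3% in WB311 with vehicle, 22.3% in WB-F344 with rapamycin and 20.1% in WB-F344 with vehicle. With vehicle, Gjb2 averaged 32.9 ± 4.05 in WB311 and 208 ± 41.7 in WB-F344 (SD, n = 3 each), and it was lower in WB311 by a log2 difference of -2.65 (SE 0.17, limma adjusted p = 4.89e-08). Counted only down to the minimum of 100, the difference was at least 2.05-fold. Without the WB-F344 arrays of plate 2 the log2 difference was -2.49.

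Gjb2 fell with rapamycin in WB-F344. The mean was 68.0 ± 15.2 with rapamycin against 208 ± 41.7 with vehicle, a log2 difference of -1.62 (95% interval -1.99 to -1.24, limma adjusted p = 5.41e-05), or again at least 2.05-fold down to 100. The difference was -1.63 without the 2 arrays of plate 2. In WB311 the means were 32.0 ± 4.33 with rapamycin and 32.9 ± 4.05 with vehicle, both under 100 and so not tested, and their log2 difference of -0.041 had a 95% interval from -0.42 to 0.34. The effect in WB311 minus that in WB-F344 was 1.58 on the log2 scale, and 1.59 without the arrays of plate 2. With both WB311 groups under 100, however, a fall in WB311 could not have been measured, and this value does not show that the lines responded differently. With rapamycin both lines were under 100, and their log2 difference of -1.08 was not tested, although no array of WB311 reached the lowest of WB-F344. Marker levels also varied with line and treatment. The summed intensity of the 10 mesenchymal markers was 13264 to 13890 in WB311 with rapamycin, 13644 to 13967 in WB311 with vehicle, 47925 to 54514 in WB-F344 with rapamycin and 56875 to 66840 in WB-F344 with vehicle. The members of that sum did not all run the same way. In WB-F344, Col1a1 averaged 9023 with rapamycin and 12835 with vehicle and Col3a1 6924 and 12892, whereas Tagln averaged 7246 and 5478 and Des 160.4 and 134. In WB311, Col1a1 averaged 222 with rapamycin and 200.1 with vehicle and Col3a1 543 and 479.9. Among the other markers with vehicle, the keratin Krt7 averaged 76.5 in WB311 against 5534 in WB-F344. The keratins Krt8, Krt18 and Krt19 ran the other way, at 6103, 247 and 110 in WB311 against 2986.5, 23.0 and 23.1 in WB-F344. The endothelial receptor Tek averaged 995 in WB311 and 37.1 in WB-F344 with vehicle. Cd14, of the leukocyte list, averaged 1123 with rapamycin and 566 with vehicle in WB-F344, while its listed companions Ptprc, Cd68, Csf1r and Itgam stayed below 100. The part of these marker levels in the Gjb2 result was not tested.

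Gjc1, which encodes connexin 45, was higher in WB311 than in WB-F344 and fell with rapamycin in WB-F344. Its probe set, 1384139_at, read 969, 912 and 951 in WB311 with rapamycin and 896, 861 and 872 in WB311 with vehicle. It read 409, 499 and 446 in WB-F344 with rapamycin and 587, 605 and 579 in WB-F344 with vehicle. No pair of groups overlapped, in the order WB311 with rapamycin, WB311 with vehicle, WB-F344 with vehicle and WB-F344 with rapamycin. The means with vehicle were 876 ± 17.7 in WB311 and 591 ± 13.3 in WB-F344 (SD, n = 3 each), a log2 difference of 0.57 (SE 0.076, limma adjusted p = 3.46e-05). With rapamycin they were 944 ± 29.1 in WB311 and 452 ± 45.3 in WB-F344, 2.10-fold higher in WB311 at a log2 difference of 1.07 (limma adjusted p = 9.16e-08). Without the WB-F344 arrays of plate 2 these log2 differences were 0.59 with vehicle and 1.14 with rapamycin.

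Within WB-F344, the log2 difference of Gjc1 between rapamycin and vehicle was -0.39 (95% interval -0.56 to -0.23, limma adjusted p = 0.00261), a 1.31-fold fall, and it was -0.45 without the arrays of plate 2 (limma adjusted p = 0.00106). Within WB311 the log2 difference was 0.11 (95% interval -0.059 to 0.27, limma adjusted p = 0.549), not past the threshold. The effect in WB311 minus that in WB-F344 was 0.50 (SE 0.11, limma adjusted p = 0.0116), and 0.56 without the arrays of plate 2. The 2-sample test of the study's methods, run on the same log2 values, did not call the fall of Gjc1 in WB-F344 (adjusted p = 0.0731 with equal variances and 0.180 with unequal variances), and with unequal variances it did not call that of Gjb2 either (adjusted p = 0.0650).

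**Figure D3:**
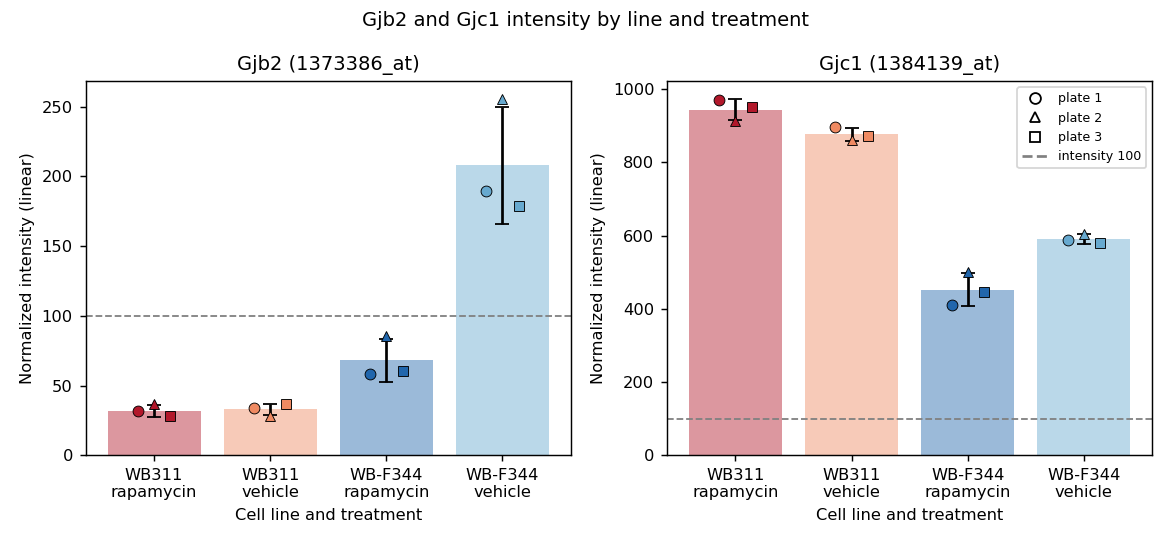
Normalized intensity (linear axes from 0) of Gjb2 (left panel) and Gjc1 (right panel) by line and treatment. Bars are group means with SD (n = 3 plates), points are arrays with a symbol for the plate, and the dashed line is the intensity of 100. Gjb2 averaged 68.0 with rapamycin and 208 with vehicle in WB-F344 and averaged 32.0 with rapamycin and 32.9 with vehicle in WB311, while Gjc1 averaged 944 and 876 in WB311 and 452 and 591 in WB-F344, with rapamycin and with vehicle in that order.

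Gjb1 and Panx1 were dim in all groups. Gjb1, the main connexin of hepatocytes, read 29.5 to 48.7 over the 12 arrays, with group means of 38.0 in WB311 with rapamycin, 40.2 in WB311 with vehicle, 43.5 in WB-F344 with rapamycin and 36.7 in WB-F344 with vehicle. Panx1 1381881_at read 20.3 to 26.7 and Panx1 1396981_at 32.9 to 41.4. The remaining Panx1 probe set, 1382934_at, read 26.3, 22.5 and 21.4 in WB311 with rapamycin and 27.5, 16.8 and 19.0 in WB311 with vehicle. It read 41.5, 42.2 and 36.6 in WB-F344 with rapamycin and 38.3, 44.5 and 49.8 in WB-F344 with vehicle, so the lines did not overlap and the treatments did. With no intensity filter this probe set was called lower in WB311, at log2 differences of -0.78 with rapamycin (limma adjusted p = 0.00198) and -1.09 with vehicle (limma adjusted p = 0.000168). The other Panx1 probe sets were not called under that setting.

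Counted over the 9 member probe sets, WB311 against WB-F344 with vehicle gave 2 calls among 4 tested, Gjc1 higher and Gjb2 lower, where 56.0% of all tested probe sets were called. With rapamycin the lines gave 1 call among 3 tested, Gjc1, against 59.3% of all tested. Rapamycin in WB-F344 gave 2 calls among 4, both lower, against 23.0% of all tested. In WB311 limma gave 0 calls among 3, with 0 at an unadjusted p under 0.05 and 0 by the 2-sample test of the study's methods with either variance, where limma called 3.35% of all tested (440 probe sets, or 1019 with the plate number as a block within each line). The difference of the rapamycin effects gave 2 calls among 4, Gjc1 and, with its WB311 levels under 100, Gjb2, against 10.0% of all tested (1424 probe sets, or 2761 with that block). With so few members tested, these shares describe the members and do not set them apart from the array.

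**Figure D4:**
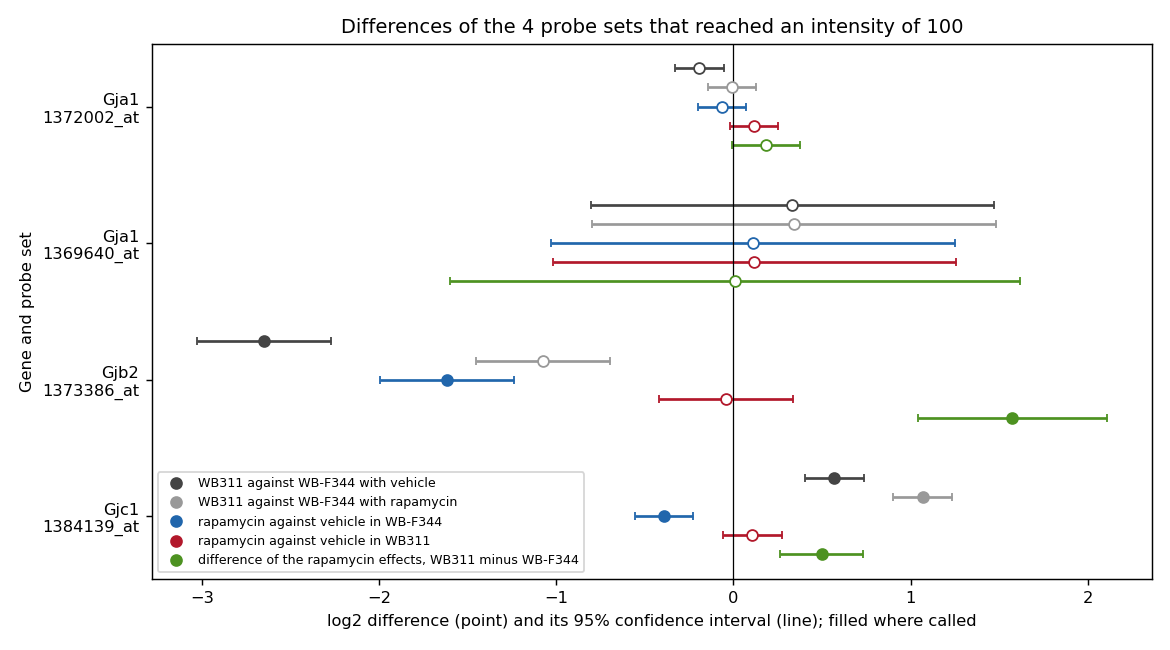
log2 differences (points) with 95% confidence intervals (lines) of the 4 probe sets that reached 100, for the 5 comparisons named in the legend; filled points were called, and the Gjb2 points of the lines with rapamycin and of rapamycin in WB311 were not tested. Gjb2 and Gjc1 lie below 0 for rapamycin in WB-F344, at -1.62 and -0.39, and the intervals of the bright Gja1 probe set, 1372002_at, stay within -0.33 and 0.38.

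**Figure D5:**
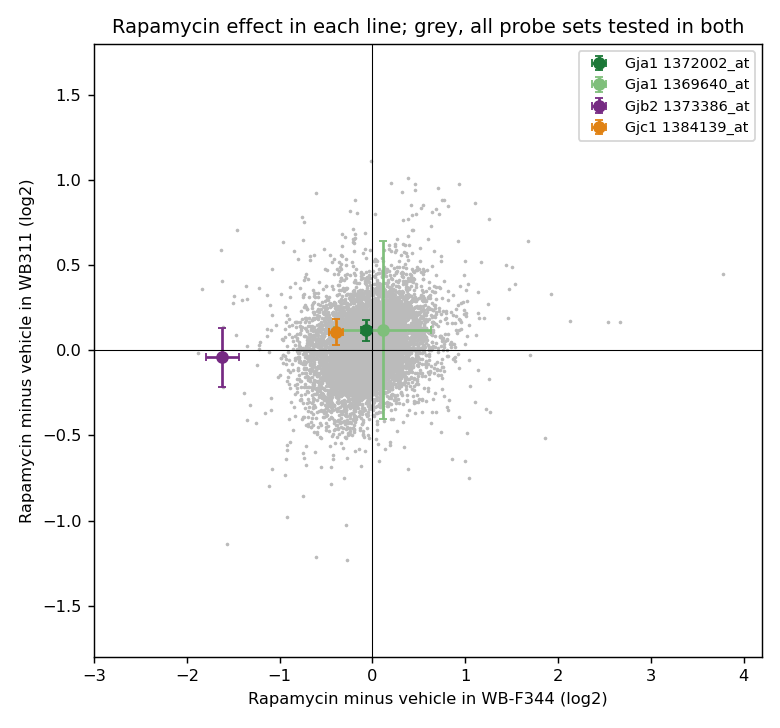
Rapamycin minus vehicle in WB311 (vertical axis, log2) against the same in WB-F344 (horizontal axis, log2) for the 12182 probe sets tested in both lines (grey) and the 4 brighter connexin probe sets (colors, with SE bars). Gjb2, tested in WB-F344 only, lies at -1.62 and -0.041, far from the bulk along the horizontal axis, and both Gja1 probe sets lie near the center.

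The other connexins and pannexins of the array did not reach 100 either. Of 18 genes listed, 8 had probe sets (Gja3, Gja4, Gja5, Gja6, Gjb5, Gjb6, Gjd2 and Panx3), and their 10 probe sets read 11.0 to 73.7. For Gja5, the vascular and atrial connexin 40, probe set 1368473_at read 52.8, 73.7 and 55.7 in WB-F344 with rapamycin against 35.3, 35.1 and 38.4 in WB-F344 with vehicle. Its 3 rapamycin arrays lay above the 3 vehicle arrays, and WB311 averaged 35.0 with rapamycin and 37.4 with vehicle. Gja5 was not tested, and its other probe set, 1387207_at, read 21.5 to 25.1. Gjb6 (connexin 30), the neighbor of Gjb2 in the annotation, read 11.0 to 15.0 on all arrays.

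Genes of junction scaffolds and their partners were compared next, from a list of 16 of which 12 were tested between the lines with vehicle. Not all of them anchor gap junctions. In WB311 4 were higher and 6 lower, where 28.0% of all tested genes were higher and 28.8% lower, and the median log2 difference of the list was -0.081 against 0.0026 over all genes. Cav2, a caveolin, averaged 388 in WB311 and 16.0 in WB-F344 (limma adjusted p = 3.54e-12), and its partner Cav1 averaged 8563 and 5248, a log2 difference of 0.71 (limma adjusted p = 7.06e-07). The tight junction protein occludin (Ocln) averaged 241 in WB311 and 1875 in WB-F344 (limma adjusted p = 7.61e-12), and Ccn3, a matricellular protein that binds connexin 43, averaged 39.5 and 412 (limma adjusted p = 2.50e-08). Cav2 in WB-F344 and Ccn3 in WB311 averaged under 100. Each entered the test only through the line where it was high, so that entry fixed its direction and the size is not measured.

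With rapamycin in WB-F344, 4 of 11 tested scaffold genes rose and 0 fell, where 7.81% of all tested genes rose and 17.4% fell. Tjp1, which encodes ZO-1, the scaffold bound by the tail of connexin 43, averaged 7508 with rapamycin and 5110 with vehicle, a log2 difference of 0.56 (limma adjusted p = 0.000252). The catenins Ctnnd1 and Ctnna1, which link cadherins to the cytoskeleton, rose by 0.62 and 0.34 on the log2 scale, and Ocln rose by 0.38. The list's median was 0.13, against -0.067 over all genes, and Gja1 itself was not called. In WB311 only Ocln was called of 11, at 383 with rapamycin and 241 with vehicle (log2 difference 0.67, limma adjusted p = 0.00126), where 1.70% of all tested genes rose and 2.05% fell. Cav1 missed the threshold there, at a log2 difference of 0.25 (limma adjusted p = 0.0504), as did Ctnnd1 at 0.33 and drebrin (Dbn1), an actin-binding partner of connexin 43, at 0.19. In WB311 the median of the list was 0.060, against 0.0032 over all genes.

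Kinases and phosphatases that act on connexins were mixed in direction. Between the lines with vehicle, 5 of 18 were higher and 7 lower in WB311, where 28.0% of all tested genes were higher and 28.8% lower. Among them were the tyrosine phosphatase Ptpn1 at 249 in WB311 and 535 in WB-F344 and the Src family kinase Yes1 at 1002 and 412. Prkcd, a protein kinase C, was higher by 0.67 on the log2 scale, and Map2k2, a kinase upstream of ERK, was lower by a log2 difference of -0.51. The list's median was -0.21, against 0.0026 over all genes. With rapamycin in WB-F344, 3 of 18 rose and 6 fell, where 7.81% of all tested genes rose and 17.4% fell. Cdk1, the mitotic kinase, averaged 3404 with rapamycin and 4736 with vehicle (log2 difference -0.47, limma adjusted p = 0.000557), Prkcz differed by -0.56, the growth factor receptor Egfr by -0.55 and Ptpn1 by 0.41, all called. Of the 6 falls, those of Map2k2, Akt1 and Prkaca lost their call without plate 1 or without plate 3 of WB-F344 with rapamycin, and without plate 2 of WB-F344 with vehicle. The rise of the receptor phosphatase Ptprm lost its call in 3 of the 12 fits that left out 1 array. In WB311 0 of 18 were called by limma, with 2 at an unadjusted p under 0.05, where 1.70% of all tested genes rose and 2.05% fell. The smallest p values there were those of Map2k1, another kinase upstream of ERK, at a log2 difference of -0.25 (limma adjusted p = 0.0973), Cdk1 at 0.16, Map2k5 at 0.14 and Src at 0.27. The median of the list was 0.041 in WB311 and -0.061 in WB-F344, beside 0.0032 and -0.067 over all genes.

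Trafficking and turnover genes of connexins were called in both directions. In WB311 against WB-F344 with vehicle 3 of 15 were higher and 4 lower, where 28.0% of all tested genes were higher and 28.8% lower. Smurf2, a ubiquitin ligase that targets connexin 43, averaged 598 in WB311 and 3572 in WB-F344 (log2 difference -2.58, limma adjusted p = 5.84e-11). Erp29, a chaperone that holds connexin 43 monomers before assembly, was lower by a log2 difference of -0.47, the deubiquitinase gene Stambp by -0.46, and Eps15, an adaptor of endocytosis, was higher by 0.80. The list's median was -0.097, against 0.0026 over all genes. With rapamycin in WB-F344 1 of 15 rose and 3 fell, where 7.81% of all tested genes rose and 17.4% fell. Erp29 averaged 1309 with rapamycin and 1860 with vehicle (log2 difference -0.51, limma adjusted p = 0.00034). Ubqln4, which carries connexin 43 to the proteasome, differed by -0.47 on the log2 scale, Sqstm1, the autophagy receptor p62, by -0.31, and Smurf2 by 0.32. The median of this list was 0.017 in WB311 and 0.0096 in WB-F344, beside 0.0032 and -0.067 over all genes. Sqstm1 lost its call in 10 of the 12 fits that left out 1 array, and Smurf2 lost its call without plate 1 of WB-F344 with vehicle (limma adjusted p = 0.0527). In WB311 only Sqstm1 fell, at 691 with rapamycin and 1030 with vehicle, and it lost the call without plate 1 of the rapamycin group (limma adjusted p = 0.054). Not called there were Stambp, at a log2 difference of -0.30 (limma adjusted p = 0.0782), Dctn1 at 0.16 and Hgs at -0.12, where 1.70% of all tested genes rose and 2.05% fell.

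Transcription factors that bind connexin promoters included the AP-1 subunits, whose motif stands in capitals in the Gja1 sequence above. Of 8 tested in the lines with vehicle, 3 were higher and 3 lower in WB311, where 28.0% of all tested genes were higher and 28.8% lower. Fosl2 averaged 57.1 in WB311 and 221 in WB-F344, Fosl1 74.9 and 152, Jun 1216 and 843, and the endoderm factor Foxa2 1207 and 722, all called. Fosl1 and Fosl2 were under 100 in WB311 and entered the test only through WB-F344, which fixed their direction. The list's median log2 difference was 0.011, against 0.0026 over all genes. With rapamycin in WB-F344, 2 of 8 rose and 1 fell, where 7.81% of all tested genes rose and 17.4% fell. Junb averaged 465 with rapamycin and 234 with vehicle, a log2 difference of 0.99 (limma adjusted p = 7.16e-06), Fosl1 rose by 0.67 on the log2 scale, and Fosl2 differed by -0.63 (limma adjusted p = 0.00419). In WB311 only Junb was called of 6, at 265 with rapamycin and 194 with vehicle (log2 difference 0.44, limma adjusted p = 0.00921), where 1.70% of all tested genes rose. Foxa2 differed there by 0.17 and Tcf7l2, an effector of Wnt signaling, by 0.19, neither called. For Jun the log2 difference was 0.31 in WB311 and -0.21 in WB-F344, neither called. The list's median was 0.18 in WB311 and -0.016 in WB-F344, beside 0.0032 and -0.067 over all genes, and Gja1 was called in neither line.

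Partners of pannexin 1 in ATP signaling were mostly dim. Of 16 on the array, 3 were tested in the lines with vehicle and 1 was called, where 28.0% of all tested genes were higher and 28.8% lower. It was the ADP receptor P2ry1, at 281 in WB311 and 15.5 in WB-F344 (limma adjusted p = 1.56e-10). P2ry1 entered the test only through WB311, so that entry fixed its direction and the size is not measured. With rapamycin in WB-F344, 1 of 2 rose and 0 fell, where 7.81% of all tested genes rose and 17.4% fell. It was the ATP-gated channel P2rx4, at 147 with rapamycin and 120 with vehicle (limma adjusted p = 0.0372), a call that was lost in 7 of the 12 fits that left out 1 array. In WB311 0 of 2 were called, with 0 at an unadjusted p under 0.05, where 1.70% of all tested genes rose and 2.05% fell. With so few tested, these counts do not set the list apart from the array.

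Without the WB-F344 arrays of plate 2, the counts of rises and falls in WB-F344 were 4 and 0 for the scaffold list, 4 and 6 for the kinases, 1 and 3 for trafficking and 2 and 2 for the transcription factors. In WB311 they were then 2 and 0, 1 and 0, 0 and 2, and 2 and 0 for the same lists. Between the lines with vehicle the counts higher and lower in WB311 were 4 and 5, 5 and 7, 3 and 4, and 3 and 3, with Tjp1 losing its call. For the partners of pannexin 1 the counts higher and lower were then 1 and 0 between the lines with vehicle. With rapamycin they were 1 and 0 in WB-F344 and 0 and 0 in WB311. With the plate number as a block within each line, the rises and falls in WB-F344 were 5 and 0 for the scaffold list and 4 and 6 for the kinases. They were 2 and 3 for trafficking and 2 and 1 for the transcription factors. The shares over all tested genes quoted above are those of the fit over all arrays without a block. Shares without plate 2 are not given here, so changes in these counts are not told apart from changes over all genes. Leaving out 1 array at a time moved the total calls in WB311 between 165 and 723. That block raised the calls over all probe sets in WB-F344 from 3055 to 4033.

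Genes whose intensity ran most like that of a member over the 12 arrays were looked up among 8659 genes. Pearson correlations of log2 intensity with Gja1 1372002_at were highest for Atoh8 (0.941), Ipo9 (0.930) and Numa1 (0.923). Those with Gjb2 were highest for Fbln5, the matrix protein fibulin 5 (0.982), Sec61a2 (0.981) and Rint1 (0.981). Fbln5 averaged 37.9 in WB311 with rapamycin, 40.9 in WB311 with vehicle, 98.8 in WB-F344 with rapamycin and 224 in WB-F344 with vehicle, the same order of lines as Gjb2. Those with Gjc1 were highest for Lmnb1, which encodes lamin B1 (0.995), the replication factor Gins3 (0.995) and Klf5 (0.993). Lmnb1 averaged 3373 in WB311 with rapamycin, 3082 in WB311 with vehicle, 1095 in WB-F344 with rapamycin and 1716 in WB-F344 with vehicle. The 12 arrays fall into 4 groups, and arrays of a group share line and treatment, so the points are not independent.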

How the data were processed

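RNA from 12 plates was hybridized to Rat Genome 230 2.0 arrays (Affymetrix). The authors deposited linear intensity values after Robust Multiarray Average (RMA), with the software version not given in the sources used here. They ranged from 7.78 to 20499, with array medians of 59.5 to 62.9, and their log2 was taken here. Every column was matched to a sample, with 0 left over.

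Of the 31042 probe sets that are not controls, 20826 had 1 gene symbol in the annotation, 436 several and 9780 none. All 12 arrays were fitted as 4 groups in R 4.3.3 with limma 3.58.1 (statmod 1.5.0 for correlated replicates), with Benjamini-Hochberg adjustment over all probe sets tested. The filter kept probe sets averaging 100 or more in a compared group, and a call required an adjusted p below 0.05 together with a change of 1.2-fold or more. These limits are those of the study's methods, which set the fold change limit before the test. Their 2-sample t-test was run as an alternative, with that limit applied after or before the correction. The fit was tested on simulated data. The number of arrays, 3 a group, limits the precision, and arrays give no read depth.

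A gene of several probe sets entered the lists by the one of highest mean. Named are all probe sets of the members, the other connexins, the 4 genes of smallest p per list and comparison described, and the 3 genes most like each member that reached 100. The members and lists were chosen with earlier results of these data known. Alternatives covered the normalization, filters, tests, array weights, pairing and left-out arrays. Deviations from the group means of same-numbered plates of the 2 treatments correlated at 0.561 to 0.871 in WB-F344 and at -0.139 to -0.000258 in WB311. In WB-F344 plates 1 and 3 correlated across numbers as well (0.581 and 0.605), so that plate 2 stood apart and plates 1 and 3 were not told apart. The block within lines was therefore an alternative, drawn from the data and not from the labels. The member proteins were not compared here.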

Additional observations from a re-analysis of the deposited data

Results flagged for a closer look

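The rapamycin effect of Gjc1 differed between the lines by a test of the difference itself, fitted with limma over all arrays. The effect in WB311 minus that in WB-F344 was 0.50 on the log2 scale (adjusted p = 0.0116), with Gjc1 well above 100 in all groups. The same test also passed for Gjb2, at 1.58 (adjusted p = 0.00182). Gjb2 entered it only through WB-F344 with vehicle, and with both WB311 groups under 100 a fall in WB311 could not have been measured, so this value does not show that the lines responded differently.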

How the results depend on the processing

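For Gjb2 and Gjc1 the direction of every called difference was kept under all alternatives. With an average of at least 100 over all 12 arrays, Gjb2 was no longer tested. Its calls between the lines with vehicle (-2.65), for rapamycin in WB-F344 (-1.62) and for the difference of the effects were thus lost. Gjc1 was then the 1 member probe set called in each of these comparisons. With no intensity filter, 3 were called between the lines with rapamycin. The methods' t-test called 1 member in WB-F344 with equal variances and 0 with unequal variances, where it called 1046 and 254 of all probe sets against 3055 by limma. With the fold change limit applied before the correction, the equal-variance test called both Gjb2 and Gjc1 there. The replicate block within lines changed no member call (Gjb2 in WB-F344 adjusted p = 2.08e-05, Gjc1 0.00201). It raised all calls to 4033 in WB-F344, 1019 in WB311 and 2761 for the difference of the effects. Leaving out 1 array at a time gave log2 differences for rapamycin in WB-F344 of -1.79 to -1.46 for Gjb2 and -0.47 to -0.32 for Gjc1, and total calls of 165 to 723 in WB311. Across all settings total calls in WB311 ran from 5 (t-test with unequal variances) to 1234 (t-test after the fold change filter), and between the lines with vehicle the unequal-variance test gave 4831. Of the member values that were tested, only those of Gja1 turned in sign, none of them called in the fit over all arrays. Gjb1, not tested, turned between the lines with vehicle, at 0.13 over all arrays and -0.020 without the WB-F344 arrays of plate 2. For 1369640_at, the difference between the lines with vehicle was -0.23 with array weights and -0.39 without the WB-F344 arrays of plate 2 (-0.39 to 0.75 with 1 array left out), and with rapamycin -0.18 without those arrays (-0.18 to 0.62). Its rapamycin effect in WB-F344 was -0.12 with array weights and -0.096 without those arrays (-0.62 to 0.63), and the difference of the effects was -0.070 after cyclic loess (-0.51 to 0.73). For 1372002_at, the difference between the lines with rapamycin was 0.014 with arrays centred on their medians and 0.0039 with array weights (-0.028 to 0.0046). Of 21 calls of listed genes in WB-F344, 7 were lost in a fit with 1 array left out, 12 under the t-test with equal variances and 18 with unequal variances. Of 36 such calls between the lines with vehicle, 5 were lost in a fit with 1 array left out. Under the t-test 5 of them were lost with equal variances and 12 with unequal variances. Of 3 such calls in WB311, 1 was lost in a fit with 1 array left out. Under the t-test 0 of these were lost with equal variances and 3 with unequal variances. The cause of these changes was not tested. Intensities under 100 limit what can be said of Gjb1, Panx1 and Gjb2 in WB311.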
